A study of Caenorhabditis elegans with 9 samples.

Results

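The loci described here are 40 sarcomere and muscle attachment genes of Caenorhabditis elegans, taken from a list of sequence names by known function, out of 43901 loci in the table. They were sorted by role into 9 loci of the thick filament, 8 of the thin filament, 8 troponins, 4 giant or immunoglobulin-domain proteins and 11 loci of the integrin attachments. RNA was measured in 9 libraries of whole young adults grown for 53 h at 20 °C in liquid culture with RNAi bacteria and 1 mM IPTG. Of these, 2 carried the label emr-1(RNAi) lem-2(tm1582), given as strain BN19, homozygous for the lem-2(tm1582) deletion, fed bacteria that make emr-1 double-stranded RNA. They are called the libraries labelled double here. The labels give BN19 for them, and the study's methods describe the emr-1 RNAi as done on BN19 animals. Yet the same methods list strain BN24 for 2 of the 9 libraries without naming their group, so the strain remains in doubt. A further 2 were emr-1(gk119) deletion mutants (BN20), 2 were lem-2(tm1582) mutants (BN19) and 3 were wild type (WT, N2). The labels do not say which bacteria the single mutants and WT ate, nor whether replicates came from separate cultures, so the p-values measure the spread between these libraries, which may be technical. emr-1 and lem-2 encode emerin and LEM2, proteins of the inner nuclear membrane, and the comparisons ask how muscle gene expression differs when one or both are missing.

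A sarcomere pulls by sliding myosin thick filaments along actin thin filaments, with tropomyosin and the troponin complex setting when myosin may bind. In nematode body wall muscle the thin filaments end in dense bodies and the thick filaments are held at M-lines, and both are anchored through integrin to the basement membrane under the epidermis and so to the cuticle. The pharynx, the muscular feeding organ, uses its own myosin heavy chains and its own troponin subunits.

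Values are coverage, the depth of reads over a base, which the authors summarised as a median within each exon, equalised between the 9 libraries by quantile normalization, and then reduced to the median exon of every transcript. Coverage is per base and so does not grow with the length of a gene by construction, but an effect of length on the levels was not tested. A locus is the mean of its transcript rows. Changes are given as log2(coverage + 1) differences with their standard error (SE) from limma, and a locus is called at an adjusted p under 0.05. Adding 1 understates the change of low loci. Read numbers were not used, so the depth behind each value is unknown.

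Several measures of the whole series bear on the muscle loci. Coverage of emr-1 was 134.8 and 73.5 in the libraries labelled double and 0 and 1.5 in the emr-1(gk119) mutant. In the lem-2(tm1582) mutant it was 44.5 and 44.4, and in WT 44.6 to 60.5. The emr-1 coverage of the libraries labelled double was thus not below WT. Whether RNA made by the fed bacteria adds to these values was not tested, so they cannot show whether the knockdown worked. The paper took dead embryos, seen when part of the culture was kept a day longer, as evidence that the RNAi worked. Coverage of lem-2 was 28.9 and 30.5 in the libraries labelled double, 16.1 and 23.8 in the emr-1(gk119) mutant and 54 and 53.2 in the lem-2(tm1582) mutant, against 29.3 to 39.0 in WT. By limma, lem-2 changed by -0.73 ± 0.20 (SE, adjusted p = 0.0481) in emr-1(gk119) against WT. Between the libraries labelled double and lem-2(tm1582) it changed by -0.83 ± 0.22 (SE, adjusted p = 0.0445). A median over exons need not fall when part of a gene is deleted. The summed coverage of 12 germline markers was 480 to 512 in the libraries labelled double, 864 to 982 in the emr-1(gk119) mutant and 1491 to 1870 in the lem-2(tm1582) mutant, against 2051 to 2363 in WT. 11 of the 12 germline markers were called lower in the libraries labelled double than in WT and 9 of 12 in emr-1(gk119). Of 7 epidermis and cuticle markers, 3 were called higher in the libraries labelled double and 2 lower. Their summed coverage there was 77.8% and 72.1% of the WT mean, against 90.2% to 113% in WT. Of 7 intestine markers none was called higher there and 2 were called lower, with a median log2 change of -0.2. Of all loci, 26.4% were called higher and 12% lower in that comparison. The intestine sum was 60.8% and 56.2% of the WT mean in the libraries labelled double and 31.4% and 37.8% in the emr-1(gk119) mutant. It was 56.1% and 59.1% in the lem-2(tm1582) mutant, against 75.1% to 135.8% in WT. No marker of the germline, sperm, intestine, epidermis, neuron, pharynx or gonadal sheath lists was at 0 in any library. In whole animals, fewer cells of a type and less RNA per cell cannot be told apart, and the part of these differences in the muscle results was not tested.

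In the libraries labelled double, most of the muscle loci rose. Of the 40 loci, each with a mean coverage of 1 or more, 27 were called higher and 1 was called lower than in WT, while limma called 26.4% of the 19567 loci tested higher and 12% lower. The median log2 change was 0.79 over the muscle loci and 0.35 over all loci tested. Both libraries labelled double lay above all 3 WT libraries for 33 of the 40 muscle loci and below them for 2, where 41.8% and 19.2% of all loci did so. Of the 22 muscle loci covered 100 times or more on average, 17 were called higher and 1 lower, where 24.7% and 18.3% of the 2279 loci at that level were. The count of muscle loci called higher fell to 8 without replicate 1 of the libraries labelled double and to 12 without replicate 2.

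The scaling moved the level of all loci. With quantile normalization repeated on loci, the median change of all loci was -0.03 and the split of calls was 3213 higher and 3534 lower, against 5164 higher and 2354 lower with the deposited scaling. The median change of the muscle loci was then 0.64. Relative to the median of all loci it was 0.44 with the deposited scaling and 0.67 with the repeated one, and 18 muscle loci were called higher and 2 lower.

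**Figure D1:**
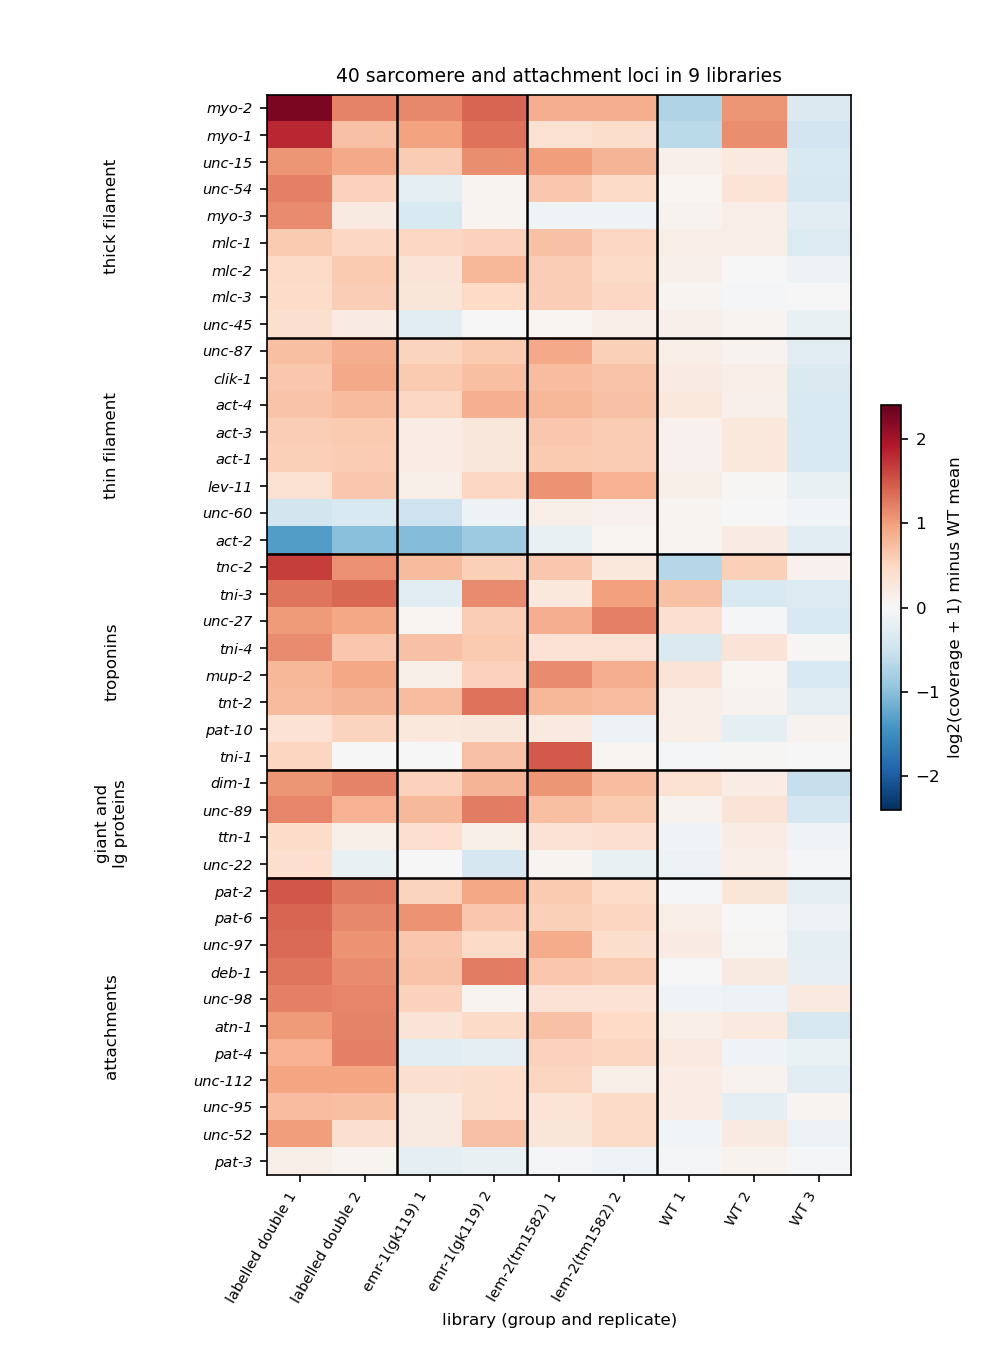
Each cell is 1 locus (row) in 1 library (column), coloured by log2(coverage + 1) minus the WT mean of that locus, with rows grouped by role and the libraries labelled double at the left and WT at the right. Most rows are red in the libraries labelled double, act-2 is blue there and in emr-1(gk119), and WT replicate 3 holds the lowest value of 22 of the 40 loci.

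Most of the integrin attachment loci rose. Integrin is a pair of membrane proteins, the alpha subunit PAT-2 and the beta subunit PAT-3, that binds perlecan (UNC-52) outside the cell and a complex of kindlin (UNC-112), integrin-linked kinase (PAT-4), parvin (PAT-6) and PINCH (UNC-97) inside it. In the libraries labelled double, 9 of the 11 attachment loci were called higher than in WT and none lower. Their median log2 change was 1.1. The background shares in this comparison were 26.4% and 12%, and the background median was 0.35.

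Coverage of pat-2 (F54F2.1, chromosome III) was 65.4 and 54.6 in the libraries labelled double, 32.9 and 43.6 in the emr-1(gk119) mutant and 35.6 and 31.1 in the lem-2(tm1582) mutant, against 21.9, 27.7 and 18.9 in WT. The libraries labelled double stood above all others, and the single mutants lay between them and WT without overlap. The change of pat-2 between the libraries labelled double and WT was 1.37 ± 0.21 (SE, adjusted p = 0.00328). The partner subunit pat-3 had 110.6 and 105.2 in the libraries labelled double, 84.6 and 88.2 in the emr-1(gk119) mutant and 98.1 and 93.1 in the lem-2(tm1582) mutant, against 96.97, 106.1 and 97.5 in WT. Its change of 0.11 ± 0.12 (SE, adjusted p = 0.495) did not pass, and turned to -0.06 with quantile normalization repeated on loci. PAT-3 is the only beta integrin of the worm and is used in many tissues, while PAT-2 is best known from muscle.

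All 4 loci of the complex inside the cell rose in the libraries labelled double. Coverage of pat-6 (T21D12.4, chromosome IV) was 170.0 and 143.6 in the libraries labelled double, 136.2 and 101.1 in the emr-1(gk119) mutant and 95.8 and 91.7 in the lem-2(tm1582) mutant, against 71.4, 63.7 and 57.6 in WT. No library of a mutant group overlapped WT, and the change between the libraries labelled double and WT was 1.28 ± 0.17 (SE, adjusted p = 0.00212). unc-97 (F14D12.2, chromosome X) had 155.6 and 128.9 in the libraries labelled double against 69.3, 61.7 and 51.3 in WT, a change of 1.22 ± 0.20 (SE, adjusted p = 0.00386). unc-112 had 107.0 and 107.8 against 62.9, 58.8 and 45.7 in WT, with a change of 0.94 ± 0.18 (SE, adjusted p = 0.00639). Coverage of the kinase locus pat-4 was 26.8 and 35.1 in the libraries labelled double, 11.9 and 12.3 in the emr-1(gk119) mutant and 21.8 and 21.2 in the lem-2(tm1582) mutant, against 17.3, 13.7 and 13 in WT. The emr-1(gk119) libraries were thus the lowest and those labelled double the highest, with a difference from WT of 1.02 ± 0.20 (SE, adjusted p = 0.00647) in the libraries labelled double and of -0.25 ± 0.20 (SE, adjusted p = 0.432) in emr-1(gk119).

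The proteins that link integrin to the filaments followed. deb-1 (ZC477.9), which encodes vinculin of the dense bodies, had 69.3 and 63.0 in the libraries labelled double, 45.5 and 67.0 in the emr-1(gk119) mutant and 44.6 and 43.0 in the lem-2(tm1582) mutant, against 27.7, 32.6 and 24.2 in WT. Every mutant library was above every WT library, and the change between the libraries labelled double and WT was 1.21 ± 0.20 (SE, adjusted p = 0.00424). unc-98 (F08C6.7), a zinc finger protein of M-lines, had 51.2 and 49.7 in the libraries labelled double, 32.1 and 22.4 in the emr-1(gk119) mutant and 27.8 and 27.5 in the lem-2(tm1582) mutant, against 20.1, 19.3 and 25.5 in WT. Its libraries labelled double stood clear of all others, with a change from WT of 1.19 ± 0.20 (SE, adjusted p = 0.00415). atn-1, the alpha-actinin that cross-links thin filaments at dense bodies, was the most covered attachment locus, with 181.5 and 203.9 against 99.4, 104.7 and 68.4 in WT, and rose by 1.098 ± 0.203 (SE, adjusted p = 0.00576). The LIM domain protein unc-95 rose by 0.73 ± 0.18 (SE, adjusted p = 0.0154). unc-52 changed by 0.69 ± 0.26 (SE, adjusted p = 0.0663), with replicates of 32.3 and 20.4 in the libraries labelled double that lay far apart.

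Of the 27 calls in the libraries labelled double, 8 were made under each of the 18 other settings tried, and all 8 were attachment loci: atn-1, deb-1, pat-2, pat-4, pat-6, unc-97, unc-98 and unc-112. Over those settings their log2 changes ran between 0.69 and 1.51 and their adjusted p between 0.000887 and 0.0483. Each of the other 19 loci lost its call in at least 1 setting. unc-95, the ninth attachment locus called, lost it when either library labelled double was left out.

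**Figure D2:**
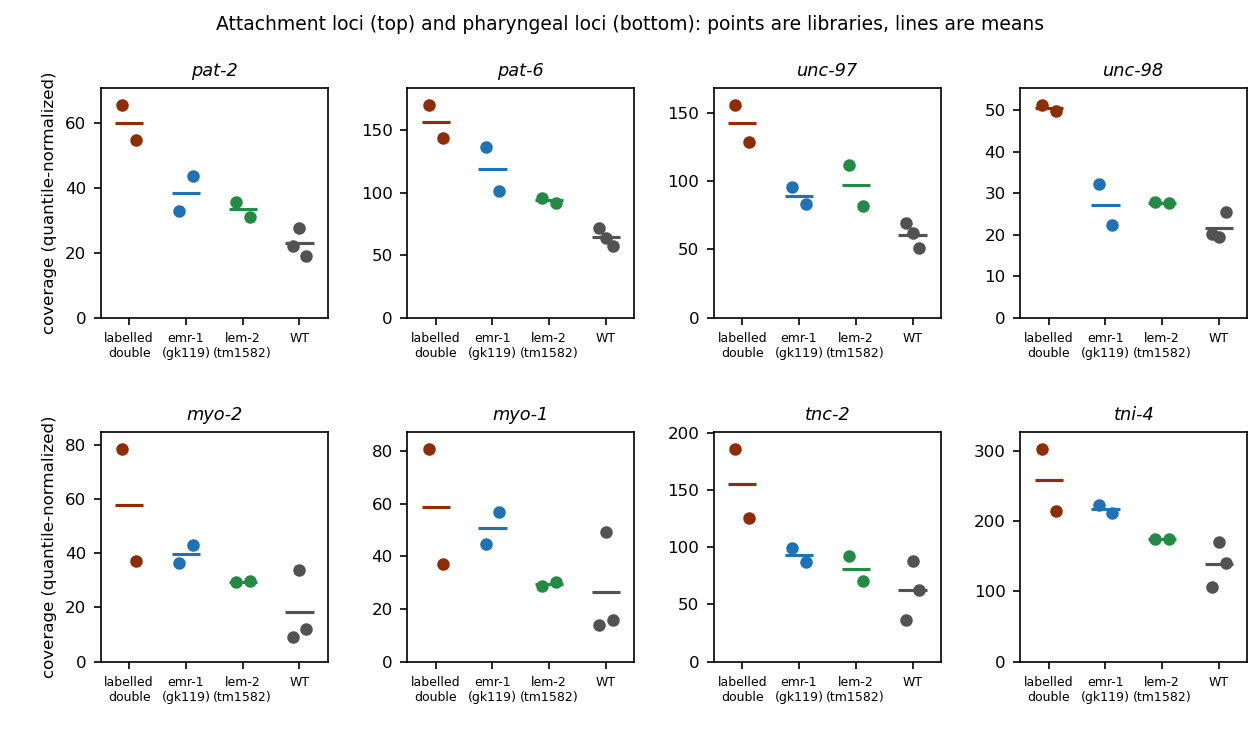
Coverage of 4 attachment loci (top) and of the 4 pharyngeal loci (bottom), with a point for each library, a line at each group mean and axes that start at 0. In the top row the libraries labelled double lie above all others, whereas in the bottom row replicate 2 of WT lies well above the other WT libraries for myo-1 and myo-2.

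Of the 9 thick filament loci, 6 were called higher in the libraries labelled double than in WT and none lower. For all loci the shares were 26.4% and 12%. The median log2 change of the 9 loci was 0.67. Without replicate 1 of the libraries labelled double no thick filament locus was called, and without replicate 2 the calls were 2, myo-3 and unc-54. unc-54 encodes the main myosin heavy chain of body wall muscle, and myo-3 the minor heavy chain that lies at the centre of the filament. Coverage of unc-54 (F11C3.3, chromosome I) was 524.0 and 333.1 in the libraries labelled double, 193.4 and 238.5 in the emr-1(gk119) mutant and 357.9 and 313.1 in the lem-2(tm1582) mutant, against 234.9, 286.9 and 174.3 in WT. Only the emr-1(gk119) libraries overlapped WT, and the change between the libraries labelled double and WT was 0.87 ± 0.27 (SE, adjusted p = 0.0356). Coverage of myo-3 was 25.6 and 13.1 in the libraries labelled double and 8.44 to 12.7 in all 7 other libraries, and its change of 0.67 ± 0.30 (SE, adjusted p = 0.12) did not pass. Per base, unc-54 was covered 18.8 to 34.5 times as deeply as myo-3 within a library.

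Paramyosin, the core of the thick filament, is encoded by unc-15 (F07A5.7). Its coverage was 374.0 and 338.5 in the libraries labelled double, 274.5 and 387.6 in the emr-1(gk119) mutant and 359.8 and 315.3 in the lem-2(tm1582) mutant, against 194.3, 212.0 and 139.7 in WT. All 6 mutant libraries stood above WT and the groups of mutants overlapped each other, with a change of 0.99 ± 0.22 (SE, adjusted p = 0.0121) between the libraries labelled double and WT. The myosin light chain locus mlc-2 was the most covered of the role, with 1426 and 1603 in the libraries labelled double, 1290 and 1811 in the emr-1(gk119) mutant and 1568 and 1426 in the lem-2(tm1582) mutant, against 1137, 1037 and 950.5 in WT. It was higher in every mutant library, by 0.54 ± 0.18 (SE, adjusted p = 0.0473) in the libraries labelled double. mlc-1 is a near-identical neighbour of mlc-2 on chromosome X, so reads may have been shared and the values of both are uncertain. mlc-1 changed by 0.56 ± 0.18 (SE, adjusted p = 0.0414) and mlc-3, the essential light chain, by 0.51 ± 0.13 (SE, adjusted p = 0.0163). The myosin chaperone unc-45 changed by 0.29 ± 0.17 (SE, adjusted p = 0.221), and its 9 libraries ran between 23 and 36.7.

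The loci known chiefly from the pharynx varied widely between libraries. myo-2 and myo-1 encode the pharyngeal heavy chains, and tnc-2 and tni-4 the pharyngeal troponins C and I. Coverage of myo-2 (T18D3.4, chromosome X) was 78.4 and 37.0 in the libraries labelled double, 36.3 and 43.1 in the emr-1(gk119) mutant and 29.4 and 29.6 in the lem-2(tm1582) mutant, against 9.17, 33.9 and 12.1 in WT. The value of WT replicate 2 was above both lem-2(tm1582) libraries. The change of myo-2 between the libraries labelled double and WT was 1.72 ± 0.53 (SE, adjusted p = 0.0377), the largest of the 40, and was called in 7 of the 18 other settings. myo-1 had 80.8 and 37.0 in the libraries labelled double against 13.8, 49.2 and 15.9 in WT, and its change of 1.26 ± 0.55 (SE, adjusted p = 0.107) did not pass. Without WT replicate 2 myo-1 was called, with an adjusted p of 0.013. Coverage of tnc-2 (ZK673.7, chromosome II) was 185.9 and 125.3 in the libraries labelled double, 99.2 and 87.4 in the emr-1(gk119) mutant and 92.6 and 70.1 in the lem-2(tm1582) mutant, against 36.0, 87.7 and 62.9 in WT, and rose by 1.37 ± 0.36 (SE, adjusted p = 0.0217). tni-4 rose by 0.89 ± 0.22 (SE, adjusted p = 0.0178). The median over the 4 pharyngeal loci, relative to the WT mean, was 1.73 and 0.90 in the libraries labelled double, 0.86 and 0.97 in the emr-1(gk119) mutant and 0.51 and 0.38 in the lem-2(tm1582) mutant, against -0.67, 0.82 and -0.16 in the WT libraries. The same median over the other 36 loci was 0.74 in each of the libraries labelled double, 0.27 and 0.49 in the emr-1(gk119) mutant and 0.64 and 0.49 in the lem-2(tm1582) mutant, against 0.12, 0.09 and -0.24 in WT.

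Of the 8 troponins, 5 were called higher in the libraries labelled double than in WT and none lower. For all loci the shares were 26.4% and 12%. The median log2 change of the 8 troponins was 0.88. None was called without replicate 1 of the libraries labelled double, and only tni-4 without replicate 2. Troponin C binds calcium, troponin I blocks myosin binding and troponin T ties the complex to tropomyosin. pat-10 (F54C1.7), the troponin C of body wall muscle, had the highest mean coverage of the 40 loci, with 3587 and 4093 in the libraries labelled double, 3363 and 3404 in the emr-1(gk119) mutant and 3303 and 2554 in the lem-2(tm1582) mutant, against 3163, 2387 and 2990 in WT. The libraries labelled double were the highest, but the change of 0.44 ± 0.19 (SE, adjusted p = 0.102) did not pass. tnt-2 (F53A9.10), a troponin T, had 276.1 and 287.5 in the libraries labelled double, 272.6 and 407.2 in the emr-1(gk119) mutant and 285.8 and 274.9 in the lem-2(tm1582) mutant, against 182.6, 172.9 and 138.6 in WT. All mutant libraries were above WT, and tnt-2 rose by 0.78 ± 0.20 (SE, adjusted p = 0.0186) in the libraries labelled double.

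The other body wall troponins were more uneven. unc-27, a troponin I, had 695.4 and 654.8 in the libraries labelled double, 351.2 and 515.7 in the emr-1(gk119) mutant and 622.9 and 792.3 in the lem-2(tm1582) mutant, against 454.0, 333.5 and 263.3 in WT. The emr-1(gk119) libraries overlapped WT and the others did not, with a change of 0.98 ± 0.26 (SE, adjusted p = 0.0231) between the libraries labelled double and WT. mup-2, a troponin T, rose by 0.87 ± 0.23 (SE, adjusted p = 0.0205). The troponin I locus tni-3 had 183.0 and 194.3 in the libraries labelled double, 62.1 and 164.9 in the emr-1(gk119) mutant and 88.7 and 148.3 in the lem-2(tm1582) mutant, against 121.1, 57.5 and 59.2 in WT. Its replicates differed by more than 1.5 times in each group except the libraries labelled double, and its change of 1.33 ± 0.48 (SE, adjusted p = 0.0638) did not pass. tni-1, a further troponin I, was low, at 4.17 to 7.58 in 8 libraries and 13.6 in replicate 1 of lem-2(tm1582).

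**Figure D3:**
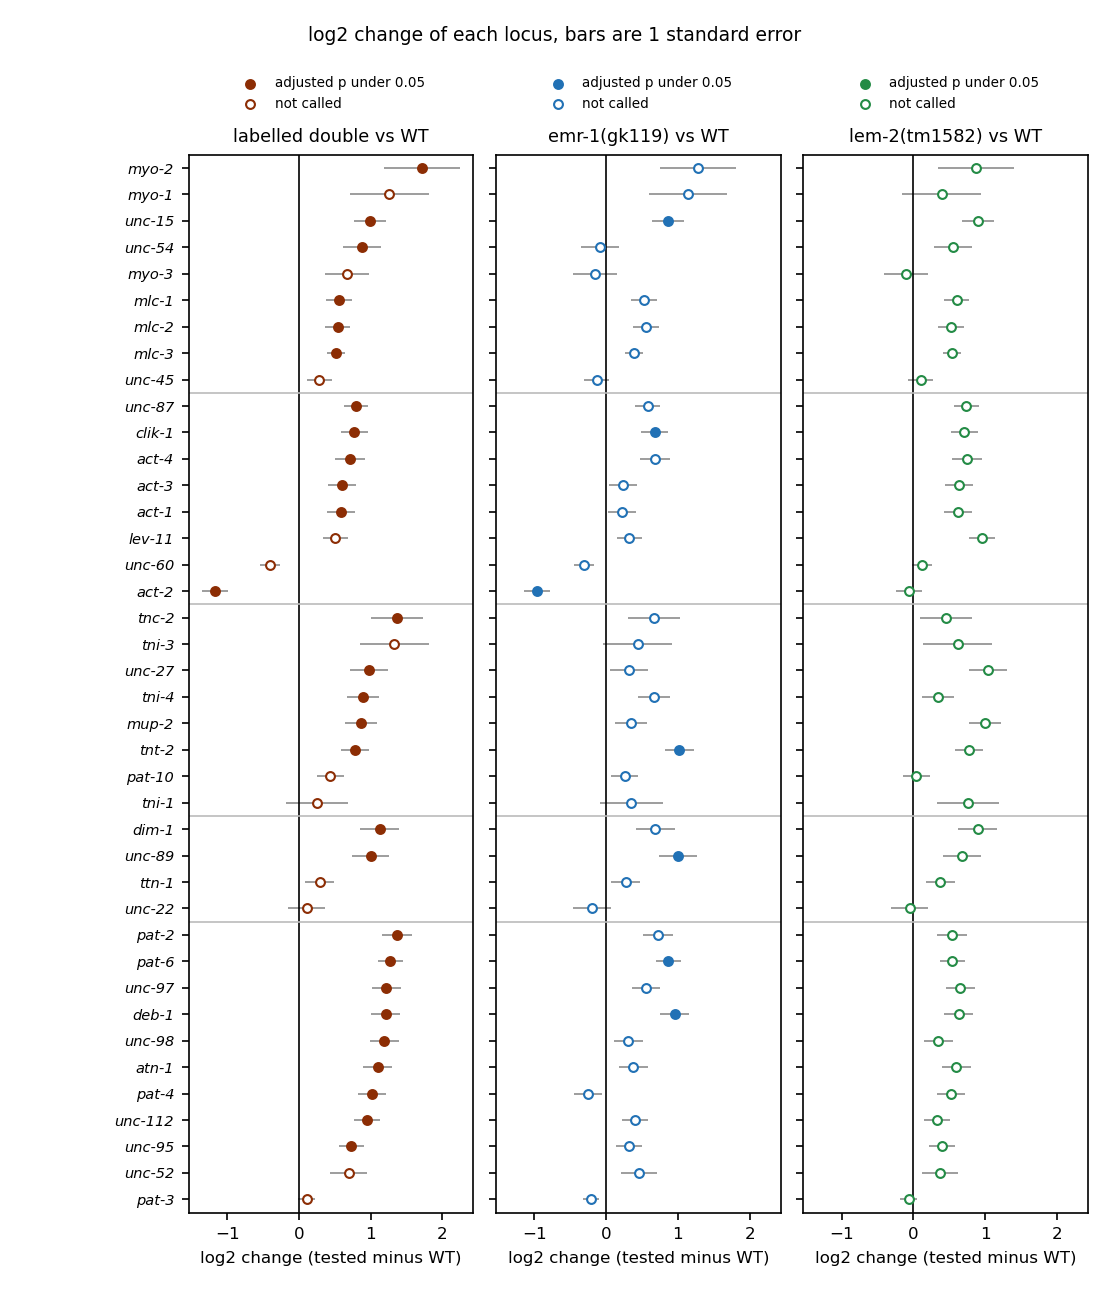
Log2 change of each locus against WT (x axis) for the libraries labelled double, emr-1(gk119) and lem-2(tm1582), with rows grouped by role from thick filament (top) to attachments (bottom). Bars are 1 standard error and filled points are called, 28 of 40 at the left, 7 in the middle and 0 at the right.

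The thin filament held the opposite directions. Of its 8 loci, 5 were called higher in the libraries labelled double than in WT and 1, act-2, lower. For all loci the shares were 26.4% and 12%. The median log2 change of the 8 loci was 0.60. When either library labelled double was left out, none of the 5 was called and act-2 still was. The worm has 4 closely related muscle-type actin loci. act-1 (chromosome V, bases 11081052 to 11082415 of WBcel235, plus strand), act-2 (V, 11076777 to 11078154, minus strand) and act-3 (V, 11071690 to 11074498, minus strand) form a cluster, and act-4 (X, 4960621 to 4964413, plus strand) lies apart.

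Coverage of act-2 was 339.3 and 424.5 in the libraries labelled double, 414.4 and 465.0 in the emr-1(gk119) mutant and 758.0 and 890.2 in the lem-2(tm1582) mutant, against 898.8, 976.6 and 717.3 in WT. The libraries labelled double and those of emr-1(gk119) were below every lem-2(tm1582) and WT library. act-2 fell by 1.17 ± 0.18 (SE, adjusted p = 0.00319) on the log2 scale in the libraries labelled double, by 0.96 ± 0.18 (SE, adjusted p = 0.0144) in emr-1(gk119), and by 1.11 ± 0.20 (SE, adjusted p = 0.0157) in the libraries labelled double set against lem-2(tm1582). The fall against WT in the libraries labelled double was called under all 18 other settings. Besides muscle, act-2 is known to work in nonmuscle cells of the early embryo. Of 5 nonmuscle myosin and actin loci, 1 was called lower in the same comparison and none higher, and it was nmy-2, a nonmuscle myosin heavy chain that is named here after its value was seen. With 12% of all loci called lower, 1 of 5 is near the background.

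The other actins moved the other way. act-1 had 2592 and 2644 in the libraries labelled double, 1975 and 2094 in the emr-1(gk119) mutant and 2700 and 2662 in the lem-2(tm1582) mutant, against 1871, 2080 and 1347 in WT. The libraries labelled double and those of lem-2(tm1582) were above WT and emr-1(gk119) overlapped it, with a change of 0.59 ± 0.20 (SE, adjusted p = 0.0469) between the libraries labelled double and WT. The ratio of act-1 to act-3 coverage was 0.973 to 0.991 in every library. Reads of near-identical copies may have been shared, so the values of act-1 and act-3 are uncertain and cannot count as separate. act-4 had 1394 and 1467 in the libraries labelled double against 1035, 945.0 and 670.9 in WT and rose by 0.72 ± 0.21 (SE, adjusted p = 0.0313). Within a library, the ratio of act-2 to act-1 coverage was 0.131 and 0.161 in the libraries labelled double, 0.21 and 0.222 in the emr-1(gk119) mutant and 0.281 and 0.334 in the lem-2(tm1582) mutant, against 0.47 to 0.533 in WT. The groups did not overlap, but no share over other pairs of loci was taken. A factor common to all loci of a library would cancel in this ratio. Quantile normalization is not such a factor, and act-1 coverage is uncertain, so the ratio is uncertain too.

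unc-60 (C38C3.5) encodes ADF/cofilin, which cuts and disassembles actin filaments, and is known to make a muscle form and a nonmuscle form. The mean over its 3 rows was 185.7 and 196.3 in the libraries labelled double, 179.2 and 231.5 in the emr-1(gk119) mutant and 280.0 and 271.2 in the lem-2(tm1582) mutant, against 263.3, 254.3 and 241.3 in WT. Both libraries labelled double were below every WT library, with a change of -0.40 ± 0.14 (SE, adjusted p = 0.0544) that just missed the threshold. The rows went apart, which was seen in the data and then tested over all 24939 rows covered at least once on average, of which 26.2% were called higher and 13.4% lower. Row C38C3.5a had 224.2 and 243.7 in the libraries labelled double, 251.7 and 319.1 in the emr-1(gk119) mutant and 395.4 and 394.6 in the lem-2(tm1582) mutant, against 396.4, 394.9 and 371.5 in WT. It fell by 0.73 ± 0.14 (SE, adjusted p = 0.0056) in the libraries labelled double, and row C38C3.5b by 0.58 ± 0.14 (SE, adjusted p = 0.0167). Row C38C3.5c had 132.1 and 125.9 in the libraries labelled double, 74.6 and 96.4 in the emr-1(gk119) mutant and 114.5 and 85.1 in the lem-2(tm1582) mutant, against 66.7, 49.2 and 53.8 in WT. Every mutant library of this row was above WT, and it rose by 1.19 ± 0.20 (SE, adjusted p = 0.00396) in the libraries labelled double. The locus is on chromosome V (1475086 to 1479576 of WBcel235, plus strand). Of its exon bases in that build, 7.8% are shared with the gene F53E2.2 (V, 1475086 to 1476784, same strand), so reads there cannot be given to one gene. Which row belongs to which protein form is not annotated in the table.

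The remaining thin filament loci bind along actin. unc-87, a calponin-repeat protein, rose by 0.80 ± 0.17 (SE, adjusted p = 0.0103) in the libraries labelled double and clik-1, a calponin-like protein, by 0.77 ± 0.19 (SE, adjusted p = 0.0162). Tropomyosin, encoded by lev-11, was highest in the lem-2(tm1582) single mutant, with 304.8 and 372.6 in the libraries labelled double, 262.0 and 336.2 in the emr-1(gk119) mutant and 501.7 and 420.1 in the lem-2(tm1582) mutant, against 262.4, 240.1 and 210.1 in WT. Its change was 0.51 ± 0.18 (SE, adjusted p = 0.0571) in the libraries labelled double and did not pass. Of its 6 rows, 3 were called higher in the libraries labelled double, with row changes between 0.10 and 0.87.

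**Figure D4:**
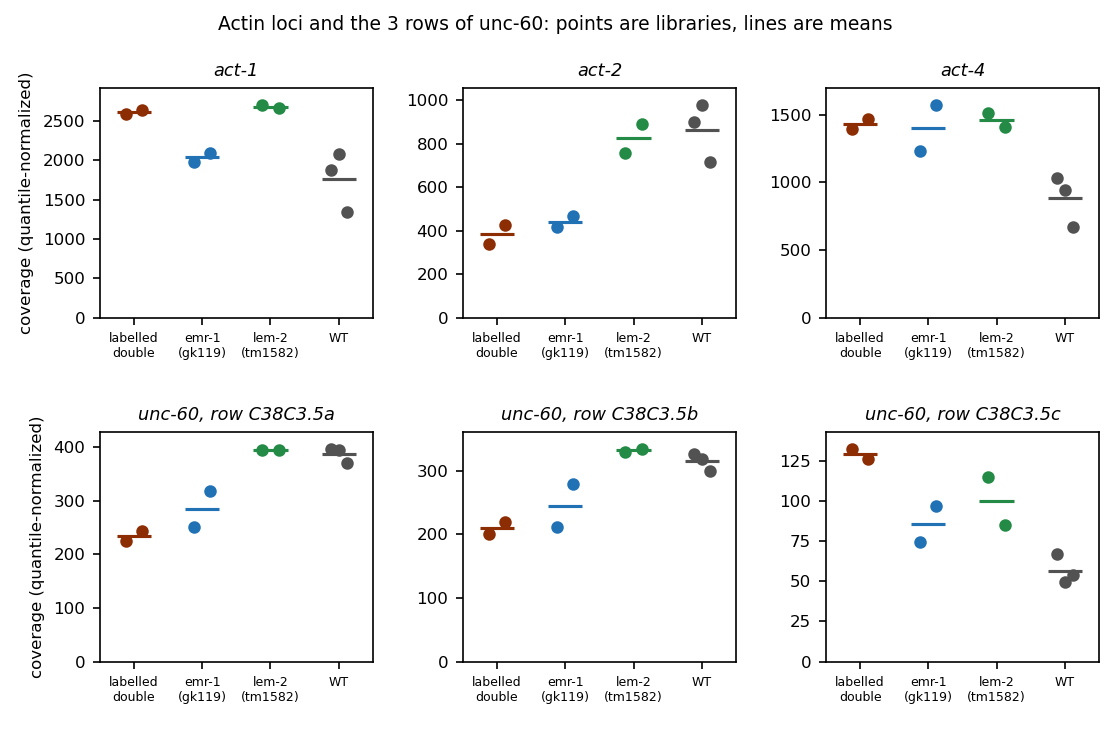
Coverage of act-1, act-2 and act-4 (top) and of the 3 rows of unc-60 (bottom) by group, with a point for each library, a line at each group mean and axes that start at 0. act-2 and rows C38C3.5a and C38C3.5b have their lowest group mean in the libraries labelled double, whereas act-1, act-4 and row C38C3.5c are higher there than in WT.

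Coverage of ttn-1 and unc-22 was the lowest of the 40 loci by mean over the 9 libraries. The giant proteins are the twitchin of unc-22 and the titin-like ttn-1, which run along the filaments as springs and kinases, and the obscurin of unc-89 at the M-line, while dim-1 encodes a smaller protein of immunoglobulin domains. Of the 4 loci, 2 were called higher in the libraries labelled double than in WT and none lower. For all loci the shares were 26.4% and 12%. The median log2 change of the 4 loci was 0.64. Neither of the 2 was called when either library labelled double was left out. dim-1 had 215.2 and 233.9 in the libraries labelled double, 149.5 and 181.6 in the emr-1(gk119) mutant and 213.9 and 170.7 in the lem-2(tm1582) mutant, against 132.0, 116.3 and 69.3 in WT. All mutant libraries were above WT, and dim-1 rose by 1.13 ± 0.27 (SE, adjusted p = 0.0158) in the libraries labelled double. unc-89 had 21.4 and 16.6 in the libraries labelled double, 16.1 and 22.3 in the emr-1(gk119) mutant and 15.4 and 14.4 in the lem-2(tm1582) mutant, against 9.60, 11.3 and 6.56 in WT, with a change of 1.00 ± 0.26 (SE, adjusted p = 0.0217) in the libraries labelled double. Of its 7 rows, C09D1.1c and C09D1.1d were called higher there, with changes of 1.46 ± 0.31 (SE, adjusted p = 0.00916) and 1.43 ± 0.32 (SE, adjusted p = 0.011), and the other 5 rows changed by 0.16 to 0.70 without passing. unc-22 changed by 0.11 ± 0.26 (SE, adjusted p = 0.767) and ttn-1 by 0.29 ± 0.20 (SE, adjusted p = 0.293), and coverage of ttn-1 was 1.43 to 2.49 in the 9 libraries. Across the 40 loci, coverage was lower where the exons were longer in sum (Spearman rho = -0.47 over 40 loci that share the 9 libraries), while the change in the libraries labelled double had a rho of 0.09 with exon length and of -0.20 with coverage. The part of transcript length in the low values was not tested.

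In WBcel235, 13 of the 40 loci share exon bases with another protein-coding gene, and in 3 of them, clik-1, mlc-2 and tnc-2, the shared part is over 10% of the exon bases and lies on the opposite strand. The kit is not known to keep strand, so values of these loci carry that uncertainty.

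Over the 15 muscle loci with more than 1 row, unc-60 was the only one with rows called in both directions in the libraries labelled double against WT. Of the 92 rows of all 40 loci, 48 were called higher and 3 lower, where 26.2% and 13.4% of the 24939 rows tested were. Rows of 1 locus are not independent, and some hold identical values, as W04D2.1a and W04D2.1b of atn-1 do.

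Of the 40 loci, 6 were called higher in emr-1(gk119) than in WT, where 10.3% of all loci tested were, and act-2 alone was called lower, where 6.27% of all loci were. The median log2 change was 0.39 over the muscle loci and 0.01 over all loci, a difference of 0.39 before rounding, where it was 0.44 in the libraries labelled double. The changes were positive for 80% of the muscle loci. The difference between the counts of calls in both comparisons with WT was not tested. The 6 loci were tnt-2 with 1.02 ± 0.20 (SE, adjusted p = 0.0157), unc-89 with 1.01 ± 0.26 (SE, adjusted p = 0.0412), deb-1 with 0.96 ± 0.20 (SE, adjusted p = 0.0215), pat-6 with 0.87 ± 0.17 (SE, adjusted p = 0.018), unc-15 with 0.86 ± 0.22 (SE, adjusted p = 0.0394) and clik-1 with 0.68 ± 0.19 (SE, adjusted p = 0.0486). They come from all 5 roles, and for each both emr-1(gk119) libraries lay above all WT libraries, as they did for 21 of the 40 loci and 22.1% of all loci. For 4 loci, act-2, pat-3, pat-4 and unc-60, both lay below WT, as for 19.5% of all loci. The count of loci called higher was 8 without WT replicate 2 and 1 to 3 without any 1 of the other 8 libraries, and none was called with only the compared groups in the fit. The fall of act-2 lost its call without replicate 1 of emr-1(gk119), with an adjusted p of 0.0681, and with only the compared groups. unc-54, the main body wall myosin, had a change of -0.08 ± 0.27 (SE, adjusted p = 0.872) in emr-1(gk119).

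None of the 40 loci was called by limma in lem-2(tm1582) in either direction, where 0.0358% of all loci were called higher and 0.0102% lower. At an unadjusted p under 0.05, 21 of the 40 loci differed, as did 3064 of the 19567 loci tested. The median log2 change was nevertheless 0.55 over the muscle loci, against 0.06 over all loci, and both lem-2(tm1582) libraries lay above all WT libraries for 29 of the 40 loci and below them for none, where 20.8% and 12% of all loci did so. The largest changes were those of unc-27 with 1.04 ± 0.26 (SE, adjusted p = 0.14), mup-2 with 1.00 ± 0.23 (SE, adjusted p = 0.127), lev-11 with 0.95 ± 0.18 (SE, adjusted p = 0.112), unc-15 with 0.91 ± 0.22 (SE, adjusted p = 0.134) and dim-1 with 0.90 ± 0.27 (SE, adjusted p = 0.181). The comparisons of the 3 mutant groups with WT share the same WT libraries, of which replicate 3 was the lowest of all 9 libraries for 22 of the 40 loci.

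Set against lem-2(tm1582), which by the labels carries the same allele, the libraries labelled double had few calls among the muscle loci. 2 of 40 were called higher, where 10.2% of all loci were, and act-2 was called lower, where 6.27% were. Both libraries labelled double lay above both lem-2(tm1582) libraries for 20 muscle loci and below them for 4, where 41.9% and 21.8% of all loci did so. The median log2 change was 0.21 over the muscle loci and 0.25 over all loci. Both loci called higher were attachment loci, unc-98 with a change of 0.85 ± 0.22 (SE, adjusted p = 0.0406) and pat-6 with 0.73 ± 0.19 (SE, adjusted p = 0.0413), and pat-2 followed with 0.83 ± 0.23 (SE, adjusted p = 0.0515). Leaving out 1 library gave 0 to 4 loci called higher, with 0 when WT replicate 1 or any library of the 2 compared groups was left out, 1 without WT replicate 2 and 4 without WT replicate 3. act-2 lost its call when either lem-2(tm1582) library or replicate 1 of the libraries labelled double was left out (adjusted p between 0.0576 and 0.108), and with only the compared groups in the fit (adjusted p = 0.051). By role, the median change was 0.56 for the attachments, 0.20 for the troponins, 0.20 for the giant proteins, 0.19 for the thick filament and -0.03 for the thin filament. Rows C38C3.5a and C38C3.5b of unc-60 were also called lower in this comparison, with changes of -0.75 ± 0.15 (SE, adjusted p = 0.0187) and -0.66 ± 0.16 (SE, adjusted p = 0.0317), while row C38C3.5c changed by 0.38 ± 0.22 (SE, adjusted p = 0.259).

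The interaction term asks whether the change labelled as loss of emr-1 differs with and without lem-2. A deletion was set against RNAi here, so the kind of depletion differs too. No muscle locus was called by limma in it, where 0.261% of all loci were called with a positive term and 0.184% with a negative one. At an unadjusted p under 0.05 there were 4 muscle loci and 3710 of 19567 loci. The most extreme terms by p were those of tnt-2 with -1.02 ± 0.29 (SE, adjusted p = 0.14), lev-11 with -0.77 ± 0.26 (SE, adjusted p = 0.188), pat-4 with 0.74 ± 0.29 (SE, adjusted p = 0.227) and unc-15 with -0.78 ± 0.33 (SE, adjusted p = 0.259).

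Other genes of the same structures, listed by function, were counted in the libraries labelled double against WT. As a background to these counts, 26.4% of the 19567 loci rose by the same rule and 12% fell. The background median log2 change was 0.35. Of the 24 other sarcomere and attachment genes listed, 21 were found in the table, and of these 15 were called higher and none lower, with a median log2 change of 0.83. Of 10 loci that carry the attachment through the epidermis or act around it, 7 were called higher and none lower, and of 11 basement membrane loci 7 were called higher and none lower. Of 6 transcription factors of muscle and pharynx, 4 were called higher and none lower, and these were hlh-1, unc-120, ceh-22 and pha-4. The largest changes among the loci called in these lists were those of mig-17, a secreted metalloprotease, with 2.37 ± 0.28 (SE, adjusted p = 0.00147), mua-6, an intermediate filament of the epidermis, with 1.79 ± 0.17 (SE, adjusted p = 0.0009), and tnt-4, a troponin T, with 1.78 ± 0.43 (SE, adjusted p = 0.0151). All 4 pharynx markers that are not among the 40 loci were called higher, of which ceh-22 and pha-4 are also among the transcription factors. In lem-2(tm1582) against WT no locus of any of these lists was called by limma. Of all loci, 0.0358% were called higher there and 0.0102% lower. The lists had median log2 changes of 0.28 to 0.7, against 0.06 over all loci.

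**Figure D5:**
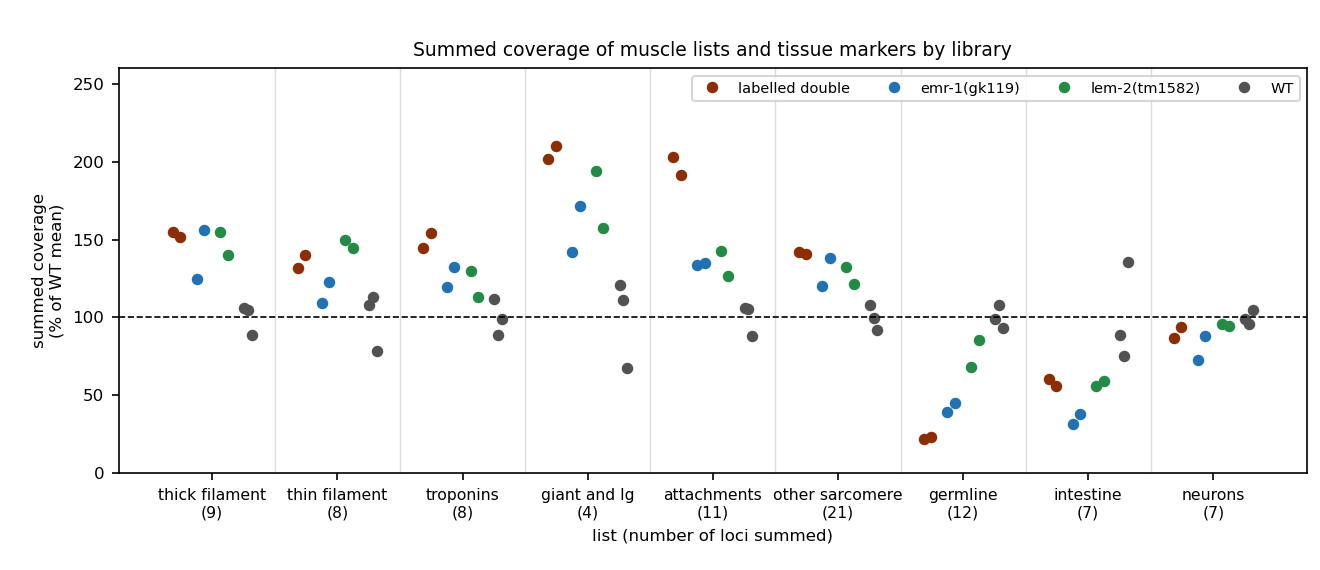
Summed coverage of the 5 roles, of other sarcomere loci and of germline, intestine and neuron markers in each library, as a percentage of the WT mean (dashed line at 100%), with the number of loci summed under each name. The attachments reach 203% and 191% in the libraries labelled double, whereas germline markers are at 21.9% and 23.3% there.

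Summed over the 11 loci, attachment coverage came to 203% and 191% of the WT mean in the libraries labelled double, 134% and 135% in the emr-1(gk119) mutant and 143% and 126% in the lem-2(tm1582) mutant, against 88.3% to 106% in WT. The thin filament sum was 132% and 140% in the libraries labelled double, 110% and 122.6% in the emr-1(gk119) mutant and 150% and 145% in the lem-2(tm1582) mutant, against 78.7% to 113% in WT. For the attachments every mutant library was thus above the WT range, while for the thin filament 1 of the 2 emr-1(gk119) libraries was within it. Germline markers were at 21.9% and 23.3% of the WT mean in the libraries labelled double, 39.4% and 44.8% in the emr-1(gk119) mutant and 68.0% and 85.3% in the lem-2(tm1582) mutant, against 93.5% to 108% in WT. Neuron markers were at 86.5% and 94.05% in the libraries labelled double, 72.4% and 88.2% in the emr-1(gk119) mutant and 95.7% and 94.3% in the lem-2(tm1582) mutant, against 96.1% to 105% in WT. Single neuron markers did not follow the sum: of the 7, 3 were called higher and 1 lower in the libraries labelled double against WT, with a median log2 change of 0.26.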

How the data were processed

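Poly(A) RNA of 9 libraries of whole young adults was analysed: 2 labelled emr-1(RNAi) lem-2(tm1582), 2 emr-1(gk119), 2 lem-2(tm1582) and 3 WT. The authors aligned reads to the WS231 genome with TopHat, sorted and indexed the alignments with Samtools, and took the coverage with Rsamtools. They deposited a coverage signal, made by taking the median base of each exon, quantile normalization of exons between libraries, and the median exon of each transcript. As the values hold no read numbers, count models were left aside and depth is unknown. The library kit is not stated to keep strand, so reads of overlapping genes on opposite strands cannot be told apart. The table holds 49395 rows in 43901 loci, of which 15786 rows are 0 in every library. Names and coordinates come from WBcel235, in which 99.1% of rows were found by sequence name.

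Rows were averaged per locus. The 19567 loci whose coverage averaged 1 or more entered a two-sided test in limma (version 3.58.1, R version 4.3.3), with 1 fit over the 9 libraries, a trend of variance with mean, and values taken as log2(coverage + 1). Benjamini-Hochberg adjustment was made over all loci of a comparison. The muscle loci and gene lists were chosen with earlier results of these data known. Per-library values are given for up to 6 loci of a role: those most covered, most changed, called against the direction of their role, or called in a single mutant or the interaction. Some values of further loci are added for the roles they fill, chosen after their values were seen. Outside the 40 loci only emr-1, lem-2 and the 3 called loci of the other lists of muscle structures with the largest change have values. Other settings tried were pseudocounts of 0.1 and 5, a coverage minimum of 5 or none, quantile normalization repeated on loci, the highest row of a locus, a fit of only the compared groups, a fit without trend, a replicate block, and leaving out each library. A fit on single rows was added after seeing the data.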

Additional observations from a re-analysis of the deposited data

How the results depend on the processing

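With the libraries labelled double set against WT, 27 loci called higher became 16 with only the compared groups in the fit and 13 with the replicate number as a block (8 to 26 when 1 library was left out), and the 1 called lower became 2 with quantile normalization repeated on loci, 2 with the highest row per locus and 2 with only the compared groups (1 to 2 when 1 library was left out). For emr-1(gk119), 6 higher became 3 without a coverage minimum, 0 with only the compared groups and 1 with the replicate block (1 to 8 when 1 library was left out), and the 1 lower became 0 with only the compared groups (0 to 1). For lem-2(tm1582) and the interaction term no setting called a muscle locus. For the libraries labelled double against lem-2(tm1582), 2 higher became 0 without a coverage minimum or with repeated quantile normalization and 1 with only the compared groups, without the trend or with the replicate block (0 to 4 when 1 library was left out), and the 1 lower became 2 with repeated quantile normalization or the highest row (0 to 2). Against WT in the libraries labelled double, repeated quantile normalization turned the uncalled changes of unc-22 to -0.44, pat-3 to -0.061, ttn-1 to -0.18 and tni-1 to -0.29, and leaving out replicate 1 of the libraries labelled double turned unc-22 to -0.18 and tni-1 to -0.005 (ranges with 1 library left out -0.18 to 0.40 and -0.005 to 0.51). The unc-60 row C38C3.5c, tested on its own, changed by 1.19 where the mean of its rows changed by -0.40. The cause of these shifts was not tested. Same-numbered libraries shared only a number, with correlations of their deviations between -0.074 and 0.031, so they were not treated as pairs. With 2 libraries in each mutant group and unknown read depth, changes of about the size of the spread between replicates may have been missed.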
